A study of Kluyveromyces marxianus and Saccharomyces cerevisiae with 12 samples.

Results

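FIT2 and FIT3 are neighbouring genes on the right arm of chromosome XV of *Saccharomyces cerevisiae*, and their RNA was followed at 6 h and 20 h of a wine fermentation. The pair are 2 of the 6461 loci in the *S. cerevisiae* tables. They were chosen by locus tag, with their levels in these samples already known, so the values of FIT2 and FIT3 below are a description with no test. The RNA came from strain EC1118, a commercial wine yeast, with 3 samples at 20 h and 3 at 6 h. All the cultures grew at 25 °C in the same medium, with 10 mg/l of phytosterols, 200 mg/l of assimilable nitrogen and 230 g/l of sugars. How much iron the medium held is not given in the sources used here. *Kluyveromyces marxianus*, the second yeast of the series, is not analysed here.

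FIT2 and FIT3 encode mannoproteins held in the cell wall by a glycosylphosphatidylinositol anchor, and they help the wall retain iron bound to siderophores, the small iron carriers released by many microbes. Yeast takes up iron either through siderophore transporters of the plasma membrane or by reducing it at the surface and passing it to a ferroxidase and permease pair. When iron is scarce, the transcription factors Aft1 and Aft2 raise the RNA of these genes, and Tis11 (also called Cth2) promotes the decay of RNAs for proteins that use iron.

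The tables give the tags EC1118_1O4_6337g and EC1118_1O4_6348g with no gene name. The first spans 462 nt (1023372 to 1023833) and the second 615 nt (1024282 to 1024896) on the scaffold that carries the tags beginning EC1118_1O4. In the annotation of the laboratory strain S288C, FIT2 (YOR382W) and FIT3 (YOR383C) have these same lengths. Length alone does not name a locus, since 12 loci of the tables are 462 nt long and 11 are 615 nt long. The neighbourhood did: 9 of the 10 nearest loci of each had lengths found beside its S288C counterpart. The 448 bases between the pair were the same number in both strains, and 9 of the 11 gaps between the 12 loci of the neighbourhood were identical to the base, the others differing by 1 or 2 bases. The same rule, applied to all loci, tied 4718 of 6017 loci with a coding-type tag to an S288C gene. It gave the right name to all 56 of the small nucleolar and nuclear RNA loci that it matched among the 59 that the tables name. In S288C the genes are transcribed towards each other. The labels give no strand setting for the counting, so sense and antisense reads cannot be told apart.

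Expression is given as FPKM, fragments per kilobase of transcript and per 1000000 mapped fragments. A sample had 3 to 13 deposited tables, which were averaged. Fragment totals were recovered from the bounds around the FPKM values, in units of 1000000 (M), and are approximate. They were summed over tables, taking these to hold separate fragments, and ran from 5.498 to 7.67 M per 20 h sample. At 6 h they came to 21.6 M in replicate 1, 9.34 M in replicate 2 and 1.51 M in replicate 3, the last from the 1 of its 3 tables that gave a depth. Spearman's rho across tested loci was 0.941 to 0.979 between 20 h samples and 0.948 to 0.980 between 6 h samples. Replicate 1 at 6 h also held 3062 FPKM of EFG00000987821, a ribosomal RNA locus listed at 0 elsewhere. Among 5712 loci with a mean of at least 1 FPKM, limma called 2268 higher and 1176 lower at 20 h at a Benjamini-Hochberg adjusted p of 0.05, which is 39.7% and 20.6% of those tested and 60.3% together. After scaling by median-of-ratios factors the counts were 1697 higher and 1755 lower, and after quantile normalization 1704 and 1574. The median log2 difference of all tested loci was 0.30 as deposited, and -0.02 and 0.02 after these scalings. List medians are therefore set beside 0.30, but the calls and p-values of single loci test a difference from 0. Nothing in the labels tells whether replicates were separate cultures, and the p-values may therefore describe technical spread alone.

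FIT2 ranked low in 2 of the 6 h samples and among the most highly expressed loci in all 20 h samples. FIT2 had 2303, 2903.5 and 2029 FPKM in the 20 h replicates 1, 2 and 3, against 5.36, 10.2 and 57.4 FPKM in the 6 h replicates. All the 20 h samples were high, and replicate 3 stood apart from the other two at 6 h. Its level ranked 44th, 36th and 66th of 6461 loci at 20 h, and 5236th, 4841st and 2224th at 6 h. The mean was 2412 ± 447 FPKM at 20 h and 24.3 ± 28.8 FPKM at 6 h (SD, n = 3 each), a ratio of 99.1. Without 6 h replicate 3 the ratio was 310.3, so this 1 library sets the size of the ratio. Pairs of single samples gave ratios between 35.3 and 541. In bulk RNA, more cells with the transcript and more transcript per cell cannot be told apart.

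FIT3 lay higher than FIT2 in every sample. FIT3 had 3018, 3195 and 2761 FPKM in the 20 h replicates 1, 2 and 3, against 37.6, 39.6 and 70.6 FPKM in the 6 h replicates. Again replicate 3 was the highest 6 h sample, by a smaller step than for FIT2. The mean was 2992 ± 219 FPKM at 20 h and 49.3 ± 18.5 FPKM at 6 h (SD, n = 3 each), a ratio of 60.7, or 77.4 without 6 h replicate 3. The FIT3 level ranked 30th, 33rd and 42nd of 6461 loci at 20 h, and 2779th, 2788th and 1941st at 6 h. Together the pair made up 0.523, 0.579 and 0.399% of the summed FPKM of all loci at 20 h, and 0.00382, 0.00447 and 0.0111% at 6 h.

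**Figure D1:**
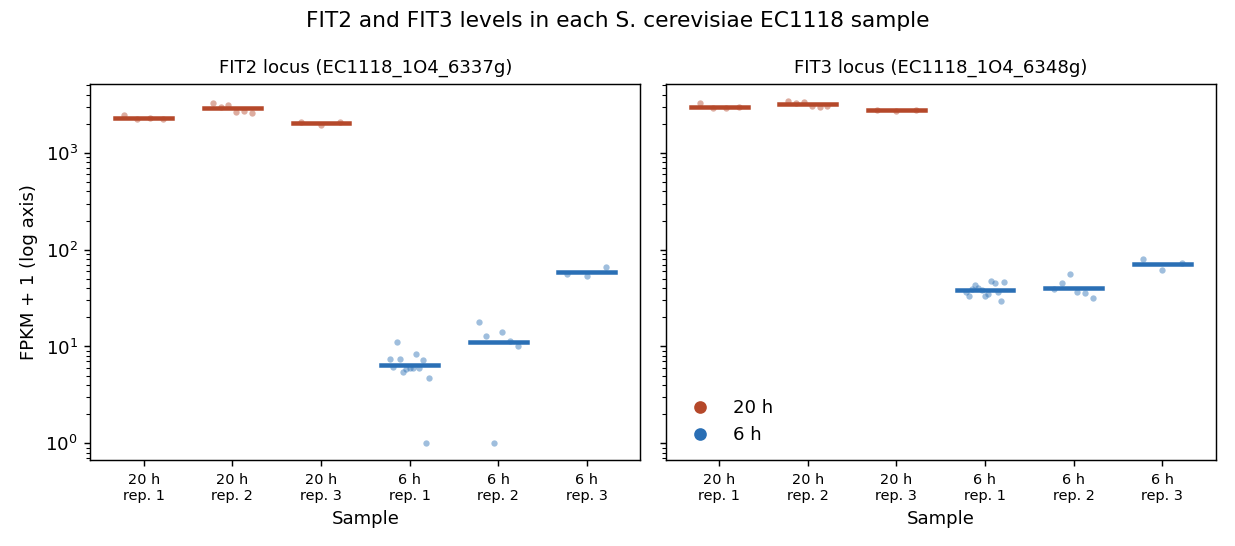
FPKM + 1 on a log axis for FIT2 (left) and FIT3 (right) in each EC1118 sample, the 20 h samples before the 6 h samples; points are the 3 to 13 deposited tables of a sample and bars their mean. Both loci reach at least 2029 FPKM in each 20 h sample, and 6 h replicate 3 is the highest 6 h sample for both; the tables drawn at 1 are listed at 0.

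On the log2(FPKM + 1) scale FIT2 differed by 7.21 between 20 h and 6 h, with replicate SDs of 0.26 at 20 h and 1.66 at 6 h. FIT3 differed by 5.95, with SDs of 0.11 at 20 h and 0.49 at 6 h. After median-of-ratios scaling the differences were 6.90 for FIT2 and 5.62 for FIT3. As deposited they ranked 4th and 7th from the top among the 5712 loci tested. Both loci had all 20 h samples above all 6 h samples, as did 45.3% of the loci tested. Any call in either direction was made for 60.3%. These shares come from the contrast in which the pair was chosen, so nothing is read from it.

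The pair were close to level with each other at 20 h and far apart in part of the 6 h samples. The ratio of FIT3 to FIT2 was 1.31, 1.10 and 1.36 in the 20 h replicates, against 7.02, 3.89 and 1.23 in the 6 h replicates. Thus 6 h replicate 3 had the ratio of a 20 h sample at a level far below it. The 2 levels were not in a fixed ratio across samples. How fragments that match more than 1 locus were counted is not given in the sources used here, and its part in these levels was not tested.

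The spread of FIT2 at 6 h was wide for a locus of its level. Among 3376 tested loci with a mean of 10 to 100 FPKM at 6 h, the median replicate SD was 0.18 on the log2 scale, and 1.13% had a larger SD than the 1.66 of FIT2. For FIT3, with an SD of 0.49, 7.82% had a larger one.

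The deposited tables of a sample agreed closely at 20 h. Their coefficient of variation (SD over mean) was 4.76, 10.2 and 3.34% for FIT2 in replicates 1, 2 and 3. For FIT3 it was 5.92, 5.94 and 1.77%. Pooled over the 20 h samples, the 13 tables ran from 1950 to 3314 FPKM for FIT2 and from 2708 to 3462 FPKM for FIT3. At 6 h, FIT2 lay between 0 and 10.2 FPKM in the 13 tables of replicate 1, between 0 and 16.8 FPKM in the 6 tables of replicate 2, and between 52.5 and 64.6 FPKM in the 3 tables of replicate 3. No table of replicate 1 or 2 reached the lowest table of replicate 3. Tables counted equally in the mean of a sample, whatever their depth. A table of replicate 1 held 0.224 M fragments and a table of replicate 2 held 0.0819 M, so a value of 0 in these would say little. The FIT2 value of replicate 1 rests on 54 fragments recovered from the bounds around the FPKM values, with an exact Poisson 95% interval of 40.6 to 70.5 fragments, or 4.03 to 6.997 FPKM. That interval covers counting error only. It also takes the 13 tables to hold separate fragments, which the labels do not tell, and the 20 h numbers that follow do likewise. In the 20 h samples FIT2 rests on roughly 3213 to 7090 fragments and FIT3 on 7394 to 14436. In 2 of the 3 tables of 6 h replicate 3, the bounds gave no fragment numbers, and the FIT2 values lie above their own upper bound. The remaining table of that sample, which gave a depth, had the highest FIT2 value of the 3, at 64.6 FPKM. Without the other 2 tables the log2 difference was 7.16 for FIT2 and 5.94 for FIT3.

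The neighbours of the pair did not share its level. Of the 5 loci on each side, the highest mean at 20 h was 158 FPKM, where FIT2 averaged 2412 FPKM and FIT3 2992 FPKM. Among these neighbours 4 of 10 rose (RDR1, FRE3, FRE5 and PHR1) and 2 of 10 fell (YOR385W and FDH1), against 39.7% and 20.6% of all loci tested. FRE3 and FRE5, the nearest neighbours on either side apart from the small open reading frame YOR381W-A, belong to the family of ferric reductases that free iron for uptake. FRE5, on the FIT3 side, had 46.1, 40.9 and 55.1 FPKM at 20 h, against 14.2, 15.2 and 19.5 FPKM at 6 h, a log2 difference of 1.48 ± 0.17 (SE; limma adjusted p = 0.00044). FRE3, on the FIT2 side, had 25.5, 28.9 and 31.3 FPKM at 20 h, against 11.8, 12.8 and 19.7 FPKM at 6 h (log2 difference 0.94 ± 0.21, limma adjusted p = 0.00707). The FRE3 call was lost under quantile normalization (limma adjusted p = 0.0727, the upper end of a range that starts at 0.00265), as was that of RDR1 (limma adjusted p = 0.0555). The small open reading frames YOR376W-A and YOR381W-A, listed at 0 in 1 and 3 of the 6 samples, did not pass (limma adjusted p = 0.658 and 0.756). PHR1, which encodes the photolyase that repairs light-damaged DNA, rose to 59.5 ± 3.54 FPKM at 20 h, against 22.4 ± 4.66 FPKM at 6 h. FDH1, a formate dehydrogenase gene, fell to 6.67 ± 2.53 FPKM at 20 h, against 19.5 ± 3.19 FPKM at 6 h. ATF1, which encodes the alcohol acetyltransferase that makes acetate esters, was at 70.9 ± 8.43 FPKM at 20 h and 58.5 ± 1.79 FPKM at 6 h (limma adjusted p = 0.129). YOR387C overlapped between the times, with 272, 164 and 39.1 FPKM at 20 h, against 122, 98.5 and 68.0 FPKM at 6 h. It did not pass (limma adjusted p = 0.658), but without 20 h replicate 3 it did (limma adjusted p = 0.0227, log2 difference 1.16). To the right of FIT3 the scaffold holds 25 more loci, the last of which ends 80027 bases from FIT3, and 7 of these 25 have an S288C match, the farthest being HSP33.

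**Figure D2:**
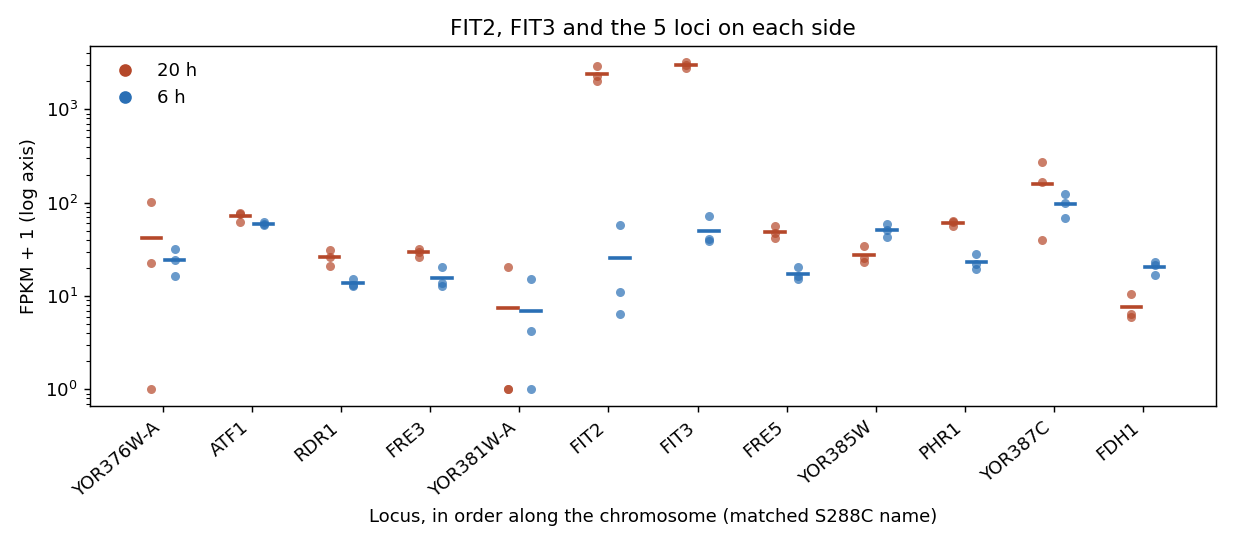
FPKM + 1 on a log axis for FIT2, FIT3 and the 5 loci on each side in chromosomal order, with the 20 h samples left of the 6 h samples; points are samples and bars their means. FIT2 and FIT3 at 20 h alone lie above 272 FPKM, and FRE3 and FRE5 beside them reach at most 31.3 and 55.1 FPKM.

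Other genes of iron uptake mostly rose, by less. Of 14 symbols on the list, 10 could be tied to an EC1118 locus (FIT1, ARN2, ENB1 and FET4 could not). Among the 10, 8 rose, 1 fell and 1 did not pass, against 39.7% higher and 20.6% lower over all loci tested, with a median log2 difference of 1.44 beside 0.30 for all tested loci. After median-of-ratios scaling 7 were higher and 1 lower, against 29.7% and 30.7% of all tested loci. After quantile normalization 6 were higher and 1 lower, against 29.8% and 27.6%.

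Siderophore transport held the largest rise of the list. SIT1, also called ARN3, a transporter of ferrioxamine siderophores, had 148, 153 and 196 FPKM at 20 h, against 11.4, 12.9 and 28.7 FPKM at 6 h. The times did not overlap, and the log2 difference was 3.26 ± 0.33 (SE; limma adjusted p = 0.000255). ARN1, a transporter of ferrichrome siderophores, had 343, 332 and 197 FPKM at 20 h, against 85.6, 86.5 and 162 FPKM at 6 h. Here 20 h replicate 3 and 6 h replicate 3 came near each other (log2 difference 1.40 ± 0.32, limma adjusted p = 0.0084).

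Of the reductive route, the ferroxidase and permease genes rose and the reductase genes differed among themselves. FET3, the multicopper ferroxidase, had 334, 295 and 249 FPKM at 20 h, against 50.5, 56.9 and 126 FPKM at 6 h (log2 difference 2.01 ± 0.35, limma adjusted p = 0.00227). FTR1, the permease that works with it, had 729, 696 and 482 FPKM at 20 h, against 125, 118 and 251 FPKM at 6 h (log2 difference 2.01 ± 0.32, limma adjusted p = 0.00175). In both, 6 h replicate 3 was the highest 6 h sample and lay below every 20 h sample. FRE1, a ferric reductase of the plasma membrane, rose to 57.5 ± 2.63 FPKM at 20 h, against 14.9 ± 5.22 FPKM at 6 h. FRE6, a reductase of the vacuole, was at 41.0 ± 5.65 FPKM at 20 h and 25.2 ± 6.95 FPKM at 6 h (limma adjusted p = 0.024). That call was lost in 7 of the 17 alternatives (range 0.00789 to 0.234). FRE4 fell, with 41.6, 46.3 and 36.8 FPKM at 20 h, against 63.3, 110.0 and 64.2 FPKM at 6 h (log2 difference -0.87 ± 0.23, limma adjusted p = 0.0157). FRE2 had 8.14, 8.68 and 11.5 FPKM at 20 h, against 4.49, 5.05 and 16.6 FPKM at 6 h, and did not pass (limma adjusted p = 0.578). Without 6 h replicate 3 the adjusted p of FRE2 was 0.0309, with a log2 difference of 0.84. The reductase genes form a family, and the part of reads shared between its members was not tested.

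**Figure D3:**
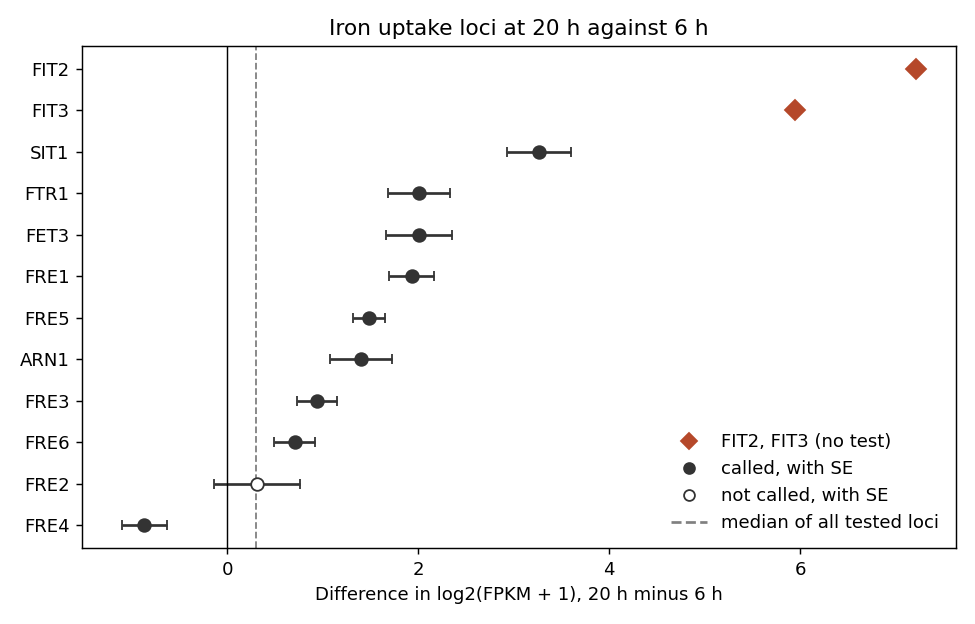
Difference in log2(FPKM + 1), 20 h minus 6 h, for FIT2 and FIT3 (diamonds, described without a test) and the 10 matched iron uptake loci (circles with SE; filled where the limma adjusted p is under 0.05), with the median of all tested loci dashed. FIT2 at 7.21 and FIT3 at 5.95 lie to the right of SIT1 at 3.26, and FRE4 is the one locus called lower.

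The high 6 h values of FIT2 and FIT3 in replicate 3 went along with most of the iron uptake list. This rests on replicate 3 alone, and 2 of its 3 tables gave no depth. Divided by the mean of the other two 6 h samples, replicate 3 stood at 7.39 for FIT2 and 1.83 for FIT3. For the 10 iron uptake loci the median of this ratio was 1.79, and it was above 1 in 9 of 10, among them FRE2 at 3.48, SIT1 at 2.36, FET3 at 2.35 and FTR1 at 2.07. FRE4, the locus that fell by 20 h, was the exception at 0.74. Some loci outside the uptake list were also highest in replicate 3. YCL048W-A had 6.44 FPKM there, against 1.59 and 1.92 FPKM in replicates 1 and 2. ISU2, which fell by 20 h, had 650 FPKM against 385 and 378 FPKM. Over all tested loci the median was 1.05, with 61.6% above 1 and a range of 0.77 to 1.33 from the 10th to the 90th percentile. Ratios over all tested loci were taken on FPKM + 1, and those of FIT2, FIT3 and the 10 loci on FPKM. The added 1 draws the ratios of low loci towards 1, so the 2 scales are not quite alike. In replicate 1 at 6 h the ratio was above 1 in 0 of the 10 loci, with a median of 0.68, where 35.5% of all tested loci were above 1 with a median of 0.92. In replicate 2 it was above 1 in 1 of 10, with a median of 0.76, where 51.4% of all tested loci were above 1 with a median of 1.00. The ratios of replicates 1 and 2 divide by a mean that holds replicate 3, so they are no separate observation. At 20 h the same ratio for FIT2 was 0.78 and for FIT3 0.89 in replicate 3, where the median over all tested loci was 1.13. The 10 iron uptake loci were split in that sample, from 0.58 for ARN1 to 1.37 for FRE2. Their median was 0.90, and 4 of 10 were above 1, where 66.2% of all tested loci were. Whether the samples of a time were taken at the same stage of growth is not given in the sources used here, and its part in the spread was not tested.

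**Figure D4:**
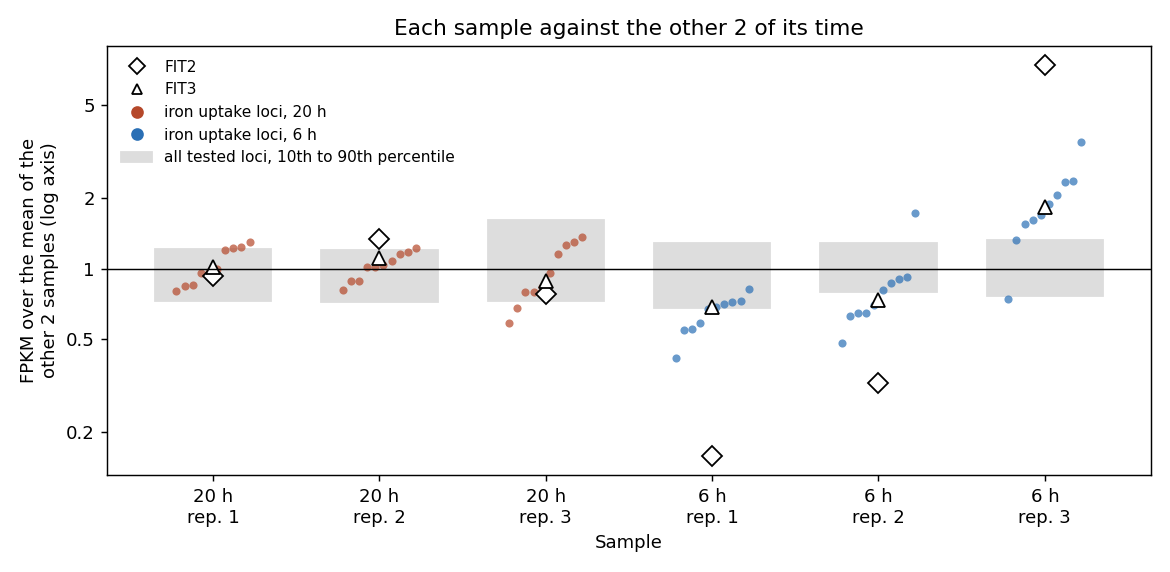
FPKM of each sample over the mean FPKM of the other 2 samples of its time, on a log axis, for FIT2 (diamonds), FIT3 (triangles) and the 10 iron uptake loci (points), with a grey box from the 10th to the 90th percentile of all tested loci, computed on FPKM + 1. In 6 h replicate 3, FIT2 at 7.39 and 9 of 10 iron uptake loci lie above 1.

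Both regulators of iron uptake were higher at 20 h. AFT1 rose to 39.4 ± 8.64 FPKM at 20 h, against 16.6 ± 2.14 FPKM at 6 h (log2 difference 1.19 ± 0.19, limma adjusted p = 0.0018). AFT2 rose to 75.5 ± 8.78 FPKM at 20 h, against 28.3 ± 4.00 FPKM at 6 h (log2 difference 1.39 ± 0.15, limma adjusted p = 0.000352). TIS11, whose product promotes the decay of RNAs for iron-using proteins, had 370, 320 and 461 FPKM at 20 h, against 67.5, 69.8 and 102 FPKM at 6 h (log2 difference 2.26 ± 0.22, limma adjusted p = 0.000209). GRX4, a glutaredoxin that takes part in iron sensing, fell to 31.3 ± 1.78 FPKM at 20 h, against 79.1 ± 18.2 FPKM at 6 h. Of the 8 matched regulators 6 rose and 1 fell, against 39.7% and 20.6% of all tested loci, with a median log2 difference of 0.94 beside 0.30. After median-of-ratios scaling 4 were higher and 2 lower, against 29.7% and 30.7% of all tested loci.

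Of 13 loci on the list for iron and copper handling, which also holds the zinc transporter gene ZRT2, 7 rose and 0 fell. This compares with 39.7% and 20.6% of all tested loci, with a median log2 difference of 0.44 beside 0.30. After median-of-ratios scaling 5 were higher and 1 lower, against 29.7% and 30.7% of all tested loci, with a median of 0.12 beside -0.02. After quantile normalization 6 were higher and 1 lower, against 29.8% and 27.6%. FET5, a ferroxidase of the vacuole, rose to 109 ± 14.7 FPKM at 20 h, against 23.7 ± 3.68 FPKM at 6 h. CCC2, the pump that supplies copper to Fet3, rose to 102 ± 18.6 FPKM at 20 h, against 25.7 ± 5.44 FPKM at 6 h. ZRT2, a low-affinity zinc transporter gene, rose to 243 ± 72.6 FPKM at 20 h, against 90.7 ± 13.2 FPKM at 6 h. CCC1, which stores iron in the vacuole, was at 62.4 ± 10.6 FPKM at 20 h and 80.5 ± 12.4 FPKM at 6 h (limma adjusted p = 0.119). After median-of-ratios and quantile scaling CCC1 passed as lower, with log2 differences of -0.69 and -0.56 (limma adjusted p = 0.00953 and 0.0243).

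Genes for making and using iron-sulfur clusters and other iron centres moved both ways. Of 24 cluster assembly loci 9 rose (37.5%) and 7 fell (29.2%), against 39.7% and 20.6% of all tested loci, so the share that rose was near that of all loci. The median log2 difference was -0.12 beside 0.30, and after median-of-ratios scaling 6 were higher and 12 lower, against 29.7% and 30.7% of all tested loci. The number that fell was 3 without 20 h replicate 1 or 2, and 4 without any one 6 h sample. JAC1, a co-chaperone of cluster transfer, rose to 83.8 ± 36.6 FPKM at 20 h, against 15.5 ± 3.79 FPKM at 6 h, and NFS1, the cysteine desulfurase, to 248 ± 59.9 FPKM at 20 h, against 84.3 ± 5.39 FPKM at 6 h. ISU2, a cluster scaffold gene, fell to 237 ± 17.0 FPKM at 20 h, against 471 ± 155 FPKM at 6 h. Of 21 loci for iron-using enzymes 8 rose (38.1%) and 9 fell (42.9%), against the same 39.7% and 20.6%, with a median log2 difference of 0.20 beside 0.30. After median-of-ratios scaling 6 of these were higher and 9 lower (42.9%), against 29.7% and 30.7% of all tested loci. After quantile normalization 9 were higher (42.9%) and 8 lower (38.1%), against 29.8% and 27.6%, so the balance depends on the scaling. BIO2, the biotin synthase gene, fell to 18.7 ± 3.51 FPKM at 20 h, against 85.4 ± 17.1 FPKM at 6 h. ILV3, of branched-chain amino acid synthesis, fell to 109.9 ± 8.77 FPKM at 20 h, against 449.6 ± 159 FPKM at 6 h. CTA1, the peroxisomal catalase gene, rose to 42.4 ± 0.446 FPKM at 20 h, against 11.6 ± 1.05 FPKM at 6 h.

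Other cell wall mannoproteins and wall genes did not move as a block with FIT2 and FIT3. Only 16 of 40 listed symbols could be matched, and of the 15 tested 5 rose (33.3%) and 7 fell (46.7%), against 39.7% and 20.6% of all tested loci, with a median log2 difference of -0.64 beside 0.30 for all tested loci. TIR4, a wall mannoprotein gene, had 1732, 1434 and 646 FPKM at 20 h, against 96.4, 83.0 and 61.2 FPKM at 6 h (log2 difference 3.88 ± 0.38, limma adjusted p = 0.000219). PST1 rose to 3208 ± 449 FPKM at 20 h, against 651 ± 138 FPKM at 6 h, a level like that of FIT3 at 20 h from a higher one at 6 h. TOS6 fell to 25.2 ± 3.74 FPKM at 20 h, against 289 ± 17.7 FPKM at 6 h, and EGT2, a gene of daughter cell separation, to 10.4 ± 1.03 FPKM at 20 h, against 107 ± 9.85 FPKM at 6 h.

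The loci with the profile most like FIT2 over the 6 samples were not on the iron lists. Likeness was the root mean square distance between log2(FPKM + 1) profiles centred on their own mean. The nearest to FIT2 was YCL048W-A at 0.61, with 601, 750 and 978 FPKM at 20 h, against 1.59, 1.92 and 6.44 FPKM at 6 h. FIT3 came next at 0.93, level with SPS100, a gene of spore wall maturation. The nearest to FIT3 were SPS100 at 0.32 and HBT1 at 0.33, and FIT2 was only the 22nd. SPS100 had 1615, 1275 and 1259 FPKM at 20 h, against 12.2, 15.3 and 17.7 FPKM at 6 h. HBT1 had 372, 250.4 and 362 FPKM at 20 h, against 3.66, 5.56 and 5.90 FPKM at 6 h. With 3 samples per time this distance mostly reads the size of the difference between times.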

How the data were processed

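The authors deposited FPKM tables with a lower and an upper bound per locus, per the file headers in Cufflinks gene tracking layout. The submitters' processing notes list Cuffdiff (2.2.1.5), TopHat2 (2.0.8), Trim Galore (0.4.3.1), Cufflinks (2.2.1.2) and FastQC (0.10.1) and give no roles. Libraries were made from 1 μg of total RNA with a TruSeq V2 kit, per the labels' protocols. Neither genome build nor annotation is given in the sources used here. All 35 tables of the 6 *S. cerevisiae* samples were averaged within a sample, since the labels do not say how they differ. The 126 values marked LOWDATA or FAIL, none of them at a named locus, were treated as missing. Fragment numbers were taken as the square of 2 × FPKM / (upper bound − FPKM), and were whole within 0.02 for a median of 79.7% of values below 5.5 fragments in the 33 tables that gave a depth.

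Loci were tied to S288C genes of identical length, one to one, where at least 5 lengths were shared among the neighbours, up to 5 on each side. The match gives a name, not a sequence, and sequences of the EC1118 loci were not used here. Loci with a mean of at least 1 FPKM entered a limma fit (version 3.58.1, R 4.3.3) of 20 h minus 6 h with a mean-variance trend, in which the response was log2(FPKM + 1), and p-values were Benjamini-Hochberg adjusted with a threshold of 0.05. This scale understates the change of low loci. The code was tested on simulated data. The members and lists were chosen with earlier results of these data known. Loci named are the pair, 5 neighbours on each side, every matched iron uptake gene, the 2 loci nearest each of the pair in profile, AFT1, AFT2, TIS11, CCC1, and examples from up to 3 called rises and 3 falls per other list whose samples did not overlap between times.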

Additional observations from a re-analysis of the deposited data

How the results depend on the processing

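The log2 difference of FIT2 ran from 6.44 (pseudocount of 10) to 8.14 (without 6 h replicate 3) over 17 alternatives, and that of FIT3 from 5.62 (median-of-ratios scaling) to 6.24 (without 6 h replicate 3), each within 1 replicate SD of the reported value. Leaving out single samples moved FIT2 between 6.54 and 8.14 and FIT3 between 5.79 and 6.24. The number of iron uptake loci called higher ran from 6 (quantile normalization) to 9 (without 6 h replicate 3), with 1 called lower throughout. Of the 47 named loci with a test, 11 changed their call or their sign under at least 1 alternative. Calls of ATM1 and NFU1, named here as cluster assembly loci that fell, were each lost in 4 of the alternatives that left out a sample (lowest and highest adjusted p over all alternatives 0.00727 to 0.0837 and 0.00159 to 0.0769). Signs turned only at loci that had not passed. YOR376W-A had 100.1, 21.9 and 0 FPKM at 20 h and averaged 40.6 FPKM at 20 h and 23.3 FPKM at 6 h, so its log2 difference of -0.82 has the opposite sign to the means. It was at 0.0046 with a pseudocount of 10, 0.62 with the median over tables, 0.71 without the 2 tables that give no depth and ran from -2.29 to 1.04 with single samples left out, the top without 20 h replicate 3. YOR381W-A, listed at 0 in 2 of the 20 h samples and 1 of the 6 h samples, averaged 6.44 FPKM at 20 h and 5.85 FPKM at 6 h, again opposite in sign to its log2 difference of -0.56. It was at 0.17 without 20 h replicate 1 or 3, 0.41 without 6 h replicate 3 (lowest -2.01 with single samples left out) and 0.76 without those 2 tables. ATF1 was at -0.064 after median-of-ratios scaling, FRE2 at -0.13 after quantile normalization and YOR387C at -0.22 without 20 h replicate 1 (up to 1.16 without replicate 3). The cause was not tested. The replicate numbers did not pair the samples: same-numbered samples had deviations correlated at -0.12, 0.17 and 0.03, and not every sample correlated best with its own number. With a replicate block 2138 loci were higher and 1101 lower, 7 iron uptake loci were higher and 1 lower, and the differences of FIT2 and FIT3 stayed at 7.21 and 5.95. Leaving out tables without a depth or under 0.5 M fragments was chosen after seeing the data. Depth limits FIT2 at 6 h, where replicate 1, the deepest 6 h sample at 21.6 M, rests on 54 fragments. FIT2 fragments were not summed for replicate 2, at 9.34 M, or replicate 3, at 1.51 M from the 1 table that gave a depth.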
